A study of Mus musculus with 34 samples.

Results

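Adenylyl cyclases make cyclic AMP (cAMP) and phosphodiesterases break down cAMP, cyclic GMP (cGMP) or both, so together they set how strongly a receptor signal reaches protein kinase A and the other cAMP targets of a neuron. Every gene whose symbol was Adcy or Pde followed by a number and, for Pde, optional letters, with a count in at least 1 library, was taken. These were 36 of 24485 gene symbols, 10 cyclases and 26 Pde genes. The symbol rule also takes genes that do not hydrolyse cyclic nucleotides: Pde4dip encodes myomegalin, a scaffold that binds PDE4D, Pde6d a chaperone that carries prenylated proteins, Pde6g and Pde6h the inhibitory subunits of the photoreceptor enzymes, and Pde12 a mitochondrial enzyme that trims RNA tails. Serotonin receptors couple to these enzymes in both directions, since some receptor types stimulate cyclases through the G protein Gs and others inhibit them through Gi. In the hippocampus, the cyclases Adcy1 and Adcy8 are stimulated by calcium and calmodulin and have been tied to synaptic plasticity and memory, and the PDE4 enzymes are the targets of rolipram, a compound long studied for antidepressant-like action.

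The genes were measured by RNA sequencing after translating ribosome affinity purification (TRAP), in which tagged ribosomes are pulled down with the mRNAs they carry, in 34 libraries from wild-type (WT) mouse hippocampus. Animals had been given fluoxetine (FLX), a selective serotonin reuptake inhibitor, or vehicle (VEH). Dentate gyrus granule cells, which receive the cortical input to the hippocampus, had 4 FLX and 4 VEH libraries, mossy cells, the excitatory neurons of the dentate hilus, had 7 and 6, and libraries labelled hippocampus had 7 and 6. The labels name no tagging allele or driver, no age, dose or duration, and do not say whether the hippocampus libraries hold bound or input RNA. They also do not state that replicates were separate animals, so p-values measure the spread between these libraries, which may be technical. Levels within a gene are given as CPM (each library's counts scaled to a common total, with TMM factors over all 34 libraries), and levels between genes as TPM, which divides by exon length.

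Library totals ran from 14.1 to 45.0 M counts, and the 36 genes together took 0.148% to 0.281% of them. The marker list for granule cells summed to 1400 to 1490 CPM in granule-cell VEH libraries, against 263 to 314 CPM in mossy-cell and 576 to 663 CPM in hippocampus VEH libraries. Mossy-cell markers summed to 132 to 306 CPM in granule-cell, 436 to 593 CPM in mossy-cell and 231 to 254 CPM in hippocampus VEH libraries. Interneuron markers were at 612 to 839 CPM in granule-cell, 3720 to 5090 CPM in mossy-cell and 668 to 722 CPM in hippocampus VEH libraries, so they set the mossy-cell libraries apart more than the mossy-cell markers did. A few libraries stood apart. Choroid plexus markers reached 5370 CPM in hippocampus VEH library 2 and were raised in VEH libraries 1, 2 and 4 of hippocampus and mossy cells. In granule cells they reached 621 CPM in VEH library 2 and 1240 CPM in FLX library 2. Microglia markers reached 222 CPM in hippocampus FLX library 4 and 79.0 CPM in mossy-cell FLX library 4, and markers of CA1 and CA2 pyramidal cells were highest in granule-cell VEH libraries 1 and 4. Results for the 36 genes that rest on these libraries are given with and without them, and the pathway lists with all libraries only. Library 2 of either granule-cell group was left out only on its own.

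Under vehicle, a single cyclase dominated in granule cells and hippocampus, and no single one did in mossy cells. Per length, Adcy1 made up 63.1% ± 4.52 of all Adcy TPM in granule cells (SD, n = 4), 33.3% ± 1.13 in mossy cells and 61.3% ± 2.44 in hippocampus (n = 6 each). Its level was 240.3 ± 51.5 TPM in granule cells, 59.4 ± 4.98 TPM in mossy cells and 201 ± 29.0 TPM in hippocampus. Adcy2, a cyclase that G protein beta-gamma subunits can stimulate, came next with 77.3 ± 15.7 TPM in granule cells, 58.3 ± 6.97 TPM in mossy cells and 54.1 ± 4.25 TPM in hippocampus. In mossy cells Adcy1 and Adcy2 differed by less than the SD of either. The third in each source was Adcy9, a widely expressed cyclase that responds poorly to the activator forskolin, at 30.35 ± 12.3, 19.3 ± 1.46 and 32.5 ± 1.93 TPM in granule cells, mossy cells and hippocampus. Adcy4, Adcy7 and Adcy10, the last being the soluble bicarbonate-sensitive cyclase, averaged at most 2.14 TPM in any VEH group.

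Among the Pde genes, Pde1a, whose enzyme is stimulated by calcium and calmodulin and hydrolyses both cAMP and cGMP, was the highest in each source under vehicle. It reached 216 ± 38.3 TPM in granule cells, 249.9 ± 35.1 TPM in mossy cells and 341 ± 29.1 TPM in hippocampus, which was 24.6%, 29.2% and 36.5% of all Pde TPM. Pde2a, a cGMP-stimulated enzyme, followed with 107.5 ± 33.4 TPM in granule cells, 142 ± 16.2 TPM in mossy cells and 129 ± 13.7 TPM in hippocampus. The third was Pde4a, a cAMP-specific enzyme, in granule cells (100.3 ± 25.0 TPM) and Pde6d in mossy cells (93.7 ± 9.81 TPM) and hippocampus (86.0 ± 5.32 TPM). Pde2a and Pde4a in granule cells, and Pde6d and Pde4a (93.1 ± 12.3 TPM) in mossy cells, did not differ beyond their spread. The photoreceptor genes Pde6a, Pde6b, Pde6c, Pde6g and Pde6h averaged at most 0.570 TPM in any VEH group, and each had 0 counts in some library. In the GENCODE M21 annotation 64.3% of the exon bases of Pde2a lie also in Gm45837, a gene on the same strand that is not in the tables, so its level depends on how the authors counted shared reads.

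**Figure D1:**
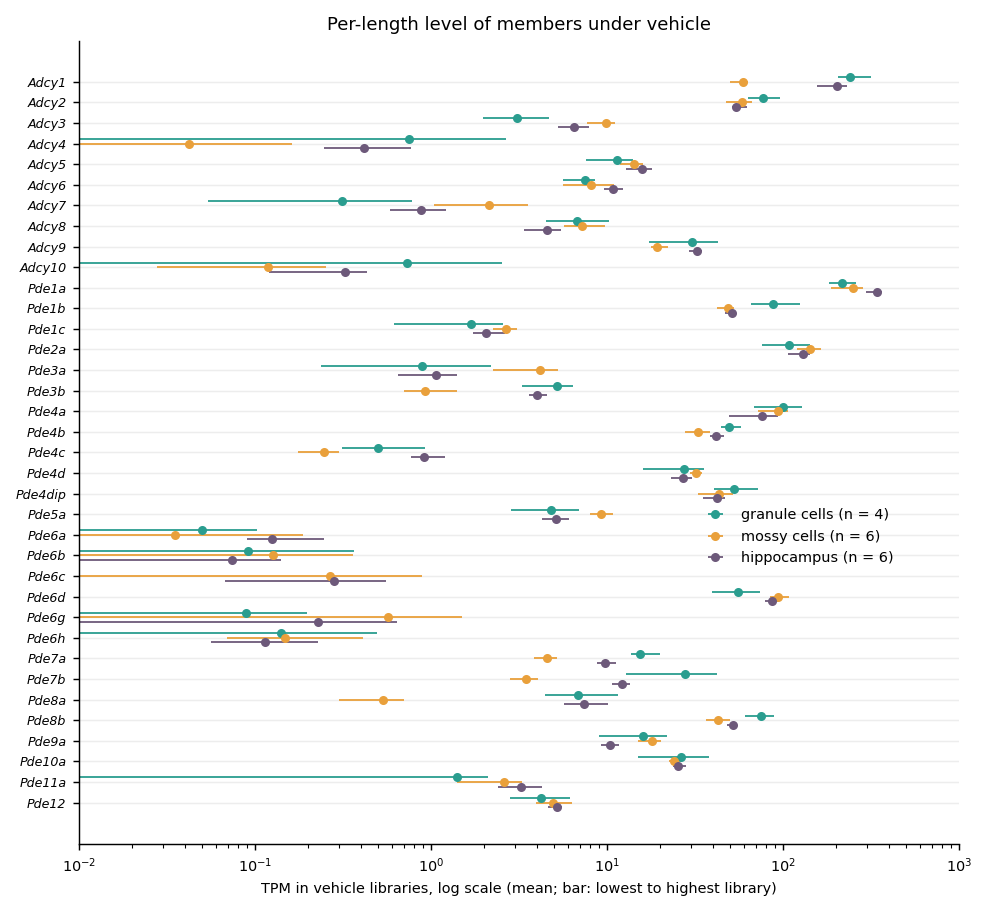
Level per exon length (TPM, log scale) of the 36 genes in the VEH libraries of granule cells, mossy cells and hippocampus; points are means, bars run from the lowest to the highest library, and a mean of 0 is not drawn. Adcy1 lies at 240.3, 59.4 and 201 TPM in the 3 sources and Pde1a tops the Pde genes in each.

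The first comparison asked how these genes differ between the sources without drug. Granule cells carried more Adcy1, Pde7b, Pde8a and Pde3b mRNA than mossy cells, and mossy cells more Adcy3, Adcy7, Pde3a and Pde5a. Of 34 genes tested between granule and mossy cells with edgeR's quasi-likelihood test, 8 were higher and 10 lower at an adjusted p under 0.05 (Benjamini-Hochberg over all genes), where 23.8% of all 15444 genes were higher and 22.4% lower, 46.1% in all. Markers of other cells differed between the same groups. Interneuron markers summed to 612 to 839 CPM in granule cells, against 3720 to 5090 CPM in mossy cells (1 of 10 higher, 9 lower), astrocyte markers to 1000 to 1170 CPM, against 373 to 533 CPM (6 of 8 higher), oligodendrocyte markers to 574 to 691 CPM, against 96.9 to 167 CPM (7 of 8 higher), and microglia markers to 21.9 to 40.3 CPM, against 2.93 to 6.47 CPM (6 of 8 higher). Their part in the result was not tested. In bulk libraries, fewer cells of a type and less RNA per cell cannot be told apart, here or in any result that follows.

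Adcy1 measured 619.5, 809.7, 593 and 603 CPM in the granule-cell VEH libraries, against a lowest, median and highest value of 160.4, 191 and 199 CPM in mossy-cell VEH libraries. The groups were far apart (log2 fold change 1.78 ± 0.15 SE, edgeR adjusted p = 5.04e-10). Pde7b, which encodes a cAMP-specific enzyme, stood at 57.0, 93.3, 108 and 36.9 CPM in granule cells, against 8.485, 11.0 and 12.45 CPM in mossy cells (2.75 ± 0.22 SE, edgeR adjusted p = 3.72e-10). Pde8a, another cAMP-specific enzyme of high affinity, was at 4.30, 4.54, 9.57 and 5.515 CPM in granule cells, against 0.2999, 0.563 and 0.714 CPM in mossy cells (3.42 ± 0.44 SE). None of the groups overlapped for these 3 genes. The share of all genes without overlap was not computed for this or the other contrasts under vehicle. Pde3b, a cGMP-inhibited enzyme, was higher in granule cells by 2.26 ± 0.39 on the log2 scale, Pde7a by 1.55 ± 0.23 and Pde1b by 0.61 ± 0.15 (SE).

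In the other direction, Pde3a, the second cGMP-inhibited enzyme, had 0.728, 5.75, 1.55 and 1.47 CPM in granule-cell VEH libraries, against 7.30, 14.3 and 16.8 CPM (lowest, median, highest) in mossy-cell VEH libraries. All granule-cell values lay below all mossy-cell values (-2.49 ± 0.43 SE, edgeR adjusted p = 3.67e-05). Adcy7 was near the limit of detection in granule cells, with 1.26, 0.490, 0.0940 and 0.0842 CPM, against 1.80, 3.335 and 5.86 CPM in mossy cells (-3.02 ± 0.88 SE, adjusted p = 0.00663). Adcy3, which in the brain is best known from neuronal primary cilia, was lower in granule cells by 1.93 ± 0.38 on the log2 scale (SE), with Pde5a, a cGMP-specific enzyme, at -1.18 ± 0.28 and Pde6d at -0.98 ± 0.22. Of the exon bases of Adcy3, 22.1% overlap Cenpo on the opposite strand, and the library kit keeps no strand, so reads of the pair cannot be told apart there. Pde6c also passed, but it had 0 counts in all 4 granule-cell VEH libraries and 39 counts over the 6 mossy-cell VEH libraries. Against a floor of 3 counts over the group, it was 7.31-fold lower in granule cells. That floor does not cover the spread between libraries: granule-cell FLX library 3 held 11 counts and mossy-cell VEH library 4 held 0. Of those 39 counts, 24 were in mossy-cell VEH library 3, and without it the ratio was 3.46-fold. Its adjusted p was 0.0312, and 0.0505 to 0.0691 without any 1 of granule-cell VEH libraries 1 to 4. Without granule-cell VEH libraries 1 and 4 together, 5 genes were lower, and without library 4 alone, 6 were.

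Mossy cells differed from the hippocampus libraries in several of the genes just named, in a comparison that uses the same mossy-cell libraries. Of 34 genes tested, 14 were higher and 9 lower in mossy cells, where 31.3% of all 15922 genes were higher and 32.8% lower, 64.0% in all. Adcy1 was lower by 1.49 ± 0.08 on the log2 scale (SE, edgeR adjusted p = 3.28e-15), with 160.4, 191 and 199 CPM in mossy-cell VEH libraries, against 418, 544 and 594 CPM in hippocampus VEH libraries (lowest, median, highest). Pde8a was at -3.52 ± 0.29, Pde3b at -1.85 ± 0.26, Pde4c at -1.62 ± 0.31 and Pde7b at -1.54 ± 0.175 (SE). Pde3a was the most raised, with 7.30, 14.3 and 16.8 CPM in mossy cells, against 1.79, 2.85 and 3.64 CPM in hippocampus (2.23 ± 0.22 SE). Adcy7 was higher by 1.55 ± 0.39, Pde5a by 1.12 ± 0.18, Pde9a, a cGMP-specific enzyme, by 1.05 ± 0.12, Adcy8 by 0.92 ± 0.16 and Adcy3 by 0.87 ± 0.15. Adcy4 was lower by 2.94 ± 0.88 with 0 counts in 3 of 6 mossy-cell libraries, and its adjusted p of 0.00446 became 0.0709 without VEH libraries 1, 2 and 4 of both sources. The interneuron marker list moved with this contrast (3720 to 5090 CPM in mossy cells, against 668 to 722 CPM in hippocampus). So did the glial lists, all 8 genes of each being lower in mossy cells: astrocyte markers summed to 373 to 533 CPM in mossy cells, against 1460 to 1810 CPM in hippocampus, oligodendrocyte markers to 96.9 to 167 CPM, against 867 to 1190 CPM, and microglia markers to 2.93 to 6.47 CPM, against 29.0 to 35.0 CPM. The part of these markers in the result was not tested.

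Against hippocampus, granule cells were higher for 10 and lower for 3 of 33 genes tested, where 16.5% of all 16124 genes were higher and 13.2% lower, 29.7% in all. The largest increases were Pde7b at 1.24 ± 0.25, Pde1b, the calcium- and calmodulin-stimulated relative of Pde1a, at 0.84 ± 0.13 and Pde7a at 0.77 ± 0.18 on the log2 scale (SE). Pde1b had 84.96, 138, 104 and 84.0 CPM in granule-cell VEH libraries, against 54.3, 57.9 and 58.9 CPM in hippocampus VEH libraries (lowest, median, highest), with no overlap. Adcy1 did not pass (0.33 ± 0.15 SE, adjusted p = 0.104). Pde9a (0.69 ± 0.22, adjusted p = 0.0174) and Adcy8 (0.67 ± 0.22, adjusted p = 0.0246) passed, as did Adcy2 (0.62 ± 0.17, adjusted p = 0.00806). Adcy3 (-1.02 ± 0.35, adjusted p = 0.0309), Pde1a (-0.58 ± 0.14, adjusted p = 0.00228) and Pde6d (-0.55 ± 0.20, adjusted p = 0.0415) were lower. Without granule-cell VEH libraries 1 and 4, the highest in CA1 and CA2 markers (up to 1580 CPM), Adcy2 stood at 0.22 (adjusted p = 0.408), Adcy8 at 0.38 (adjusted p = 0.197), Pde7a at 0.49 (adjusted p = 0.0806), Adcy3 at -0.70 (adjusted p = 0.246) and Pde6d at -0.57 (adjusted p = 0.101). Library 1 alone had 20.2 CPM of Adcy8, against 8.50 to 10.1 CPM in the other granule-cell VEH libraries, and without it Adcy8 was at 0.31 (adjusted p = 0.24). Pde9a also lost its call without granule-cell VEH library 1 (adjusted p = 0.0796) or 3 (0.0699), Adcy3 without granule-cell VEH library 1 or 4 or hippocampus VEH library 3 or 5 (highest 0.0843), Adcy8 without hippocampus VEH library 3 (0.0521), and Pde6d without any of 12 libraries (highest 0.129). The count of genes lower was 5 without granule-cell VEH or FLX library 2 and 1 without hippocampus VEH library 3 or 5. A correction for transcript G+C content and length moved the median of all genes to 0.23 here, against -0.00481 without it, and to 0.20 against -0.0415 between mossy cells and hippocampus, and changes in these contrasts are relative to that median. With it, 77.1% of called genes were higher in granule cells than in hippocampus, against 55.6% without it, and 64.7% against 48.8% in mossy cells. Pde6d then lost its call in granule cells (-0.13, adjusted p = 0.654).

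**Figure D2:**
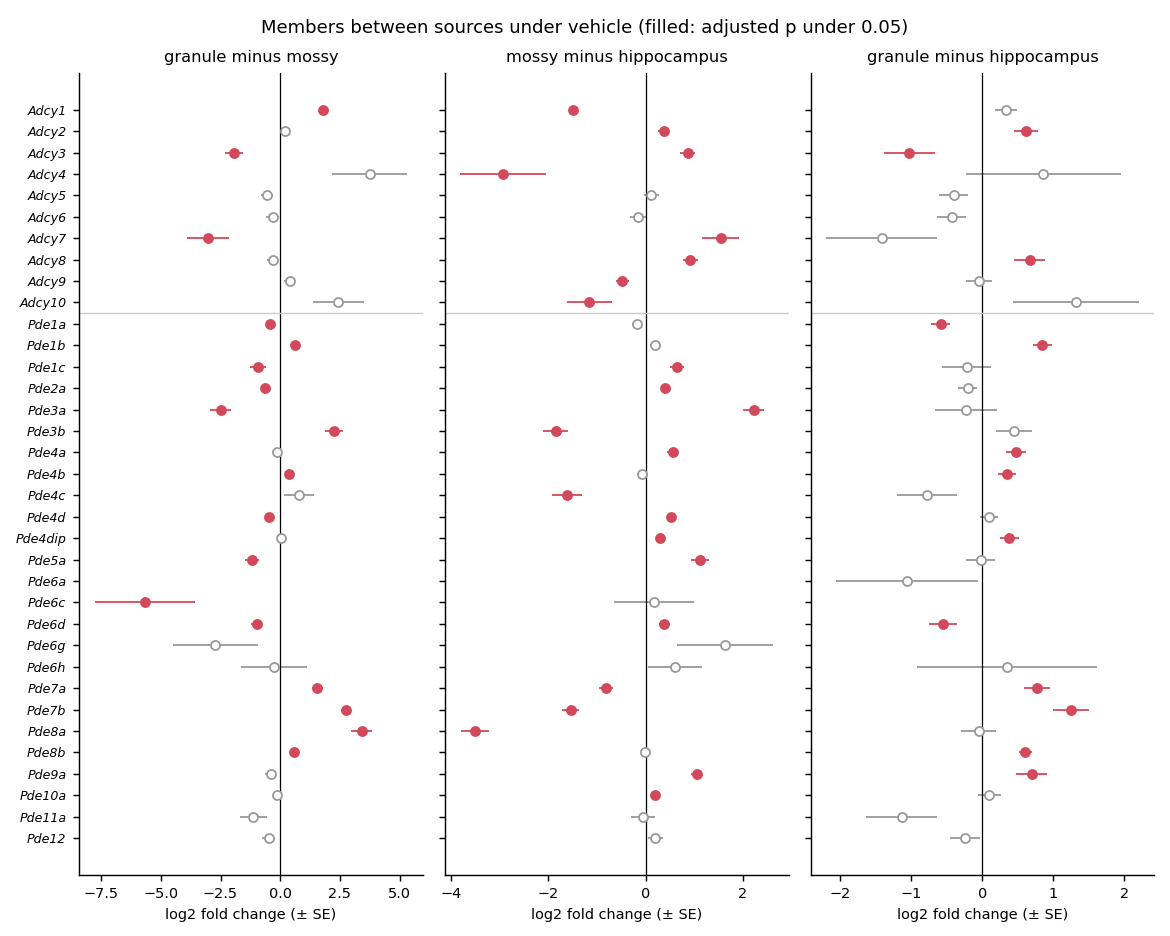
Log2 fold change ± SE of each tested gene between sources under vehicle (granule minus mossy cells, mossy cells minus hippocampus, granule cells minus hippocampus, left to right), with filled points at an adjusted p under 0.05 and cyclases above the grey line. Adcy1 is at 1.78 between granule and mossy cells and at -1.49 between mossy cells and hippocampus, and Pde3a is at -2.49 and 2.23.

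The next comparison asked what fluoxetine did in the hippocampus libraries. Most cyclases rose: 7 of 10 passed upward and 0 downward, with a median log2 fold change of 0.44, against 0.00128 for all genes. Of 22 Pde genes tested, 3 rose and 4 fell, with a median of -0.06. Among all 15596 genes, 15.5% rose, 14.7% fell and 30.2% passed in either direction, beside 70.0% and 0.0% of the cyclases and 13.6% and 18.2% of the Pde genes, whose shares were near the background. For all 36 genes together, 10 rose, 4 fell, 18 of the 32 tested did not pass, and Pde6a, Pde6b, Pde6c and Pde6g were too low to test.

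Adcy9 measured 40.2, 46.0 and 53.55 CPM in FLX hippocampus, against 32.8, 34.9 and 37.1 CPM in VEH hippocampus (lowest, median, highest of 7 and 6 libraries). Every FLX library lay above every VEH library (log2 fold change 0.42 ± 0.07 SE, edgeR adjusted p = 0.0009). Adcy5, which Gi and calcium inhibit, had 29.7, 32.3 and 46.1 CPM in FLX libraries, against 19.8, 23.9 and 26.3 CPM in VEH libraries (0.565 ± 0.10 SE, edgeR adjusted p = 0.00145), again without overlap. Its close relative Adcy6 had 17.35, 19.8 and 22.3 CPM with FLX, against 13.95, 15.4 and 17.0 CPM with VEH (0.39 ± 0.07 SE). Adcy2 rose to a median of 61.4 CPM (56.5 to 83.7) with FLX, against 46.0 CPM (43.7 to 54.1) with VEH (0.46 ± 0.09 SE), and FLX libraries 2 and 4 were its highest. Adcy8 had 9.725, 10.9 and 12.6 CPM with FLX, against 5.65, 7.98 and 9.16 CPM with VEH (0.49 ± 0.11 SE). The groups did not overlap for Adcy2, Adcy6 and Adcy8 either, which makes 5 cyclases above, where 4.6% of all genes had every FLX library above every VEH library.

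Adcy1, the most abundant cyclase, had 565.5, 701 and 726 CPM in FLX hippocampus, against 418, 544 and 594 CPM in VEH hippocampus (0.35 ± 0.08 SE, edgeR adjusted p = 0.00621). Of its 7 FLX libraries, 5 lay above every VEH library, while libraries 2 and 3 fell inside the VEH range. Adcy7, a cyclase best known from blood cells, had 1.02, 2.275 and 2.68 CPM with FLX, against 0.792, 1.25 and 1.69 CPM with VEH (0.74 ± 0.24 SE, adjusted p = 0.0273). Its call was lost without VEH library 2 (adjusted p = 0.0636), VEH library 4 (0.057) or FLX library 1 (0.0541). The 3 cyclases that did not pass were Adcy10 (0.68 ± 0.29, adjusted p = 0.0768), Adcy3 (0.26 ± 0.11, adjusted p = 0.0781) and Adcy4 (-0.27 ± 0.41, adjusted p = 0.649). Summed over the family, Adcy mRNA stood at 452.3 ± 31.9 TPM with FLX and 326.9 ± 35.4 TPM with VEH (SD, n = 7 and 6).

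**Figure D3:**
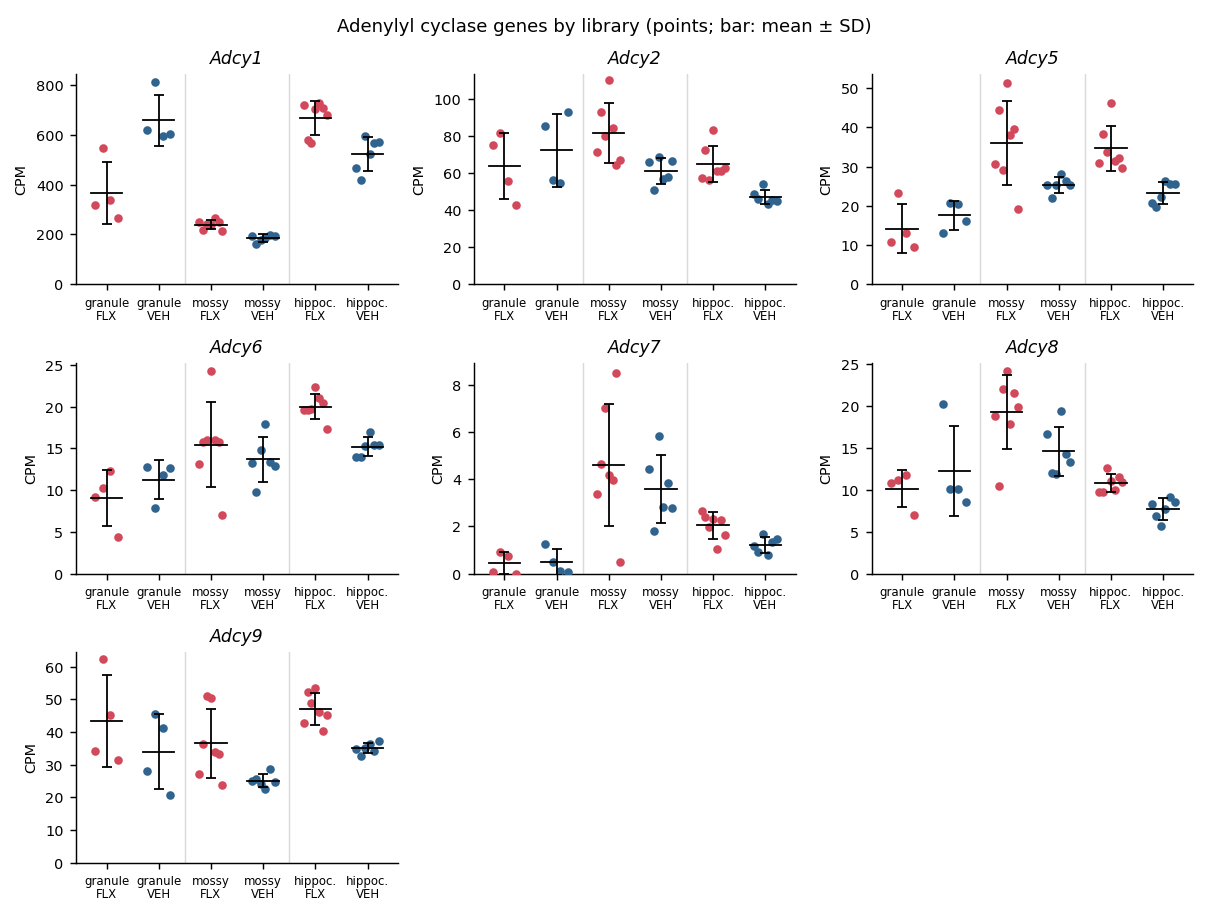
CPM of 7 cyclases in every library, with FLX (red) left of VEH (blue) in each source; horizontal bars are means and error bars SD. In hippocampus the FLX points of Adcy2, Adcy5, Adcy6, Adcy8 and Adcy9 all lie above the VEH points, and in granule cells the 4 FLX points of Adcy1 (264.5 to 545.7 CPM) lie below the 4 VEH points (593 to 809.7 CPM).

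The Pde genes that fell in hippocampus included both members of the calcium-stimulated PDE1 family that are abundant there. Pde1b had 38.9, 49.7 and 52.55 CPM with FLX, against 54.3, 57.9 and 58.9 CPM with VEH (-0.25 ± 0.07 SE, edgeR adjusted p = 0.0097). It was the only Pde gene with every FLX library below every VEH library, as 4.39% of all genes were. Pde1a had 354, 379.7 and 429 CPM with FLX, against 381.5, 442 and 446 CPM with VEH (-0.17 ± 0.06 SE, adjusted p = 0.0387). Its call was fragile, since the adjusted p rose above 0.05 (highest 0.0908) without any 1 of VEH libraries 3, 4, 5 and 6 or FLX libraries 1, 3, 4, 5 and 6. The cAMP-specific Pde4b had 64.4, 79.6 and 86.1 CPM with FLX, against 85.1, 89.8 and 98.1 CPM with VEH (-0.23 ± 0.07 SE, adjusted p = 0.0182). Pde6d had 29.6, 31.7 and 37.5 CPM with FLX, against 35.5, 37.8 and 44.1 CPM with VEH (-0.25 ± 0.07 SE, adjusted p = 0.0141). The groups of Pde4b and Pde6d overlapped in part, with 5 and 6 of 7 FLX libraries below every VEH library.

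Of the Pde genes that rose, Pde2a had 177, 185 and 221.5 CPM with FLX, against 140.6, 168 and 180.0 CPM with VEH (0.22 ± 0.07 SE, edgeR adjusted p = 0.0237). Pde3b stood at 7.815, 9.555 and 13.95 CPM with FLX, against 6.985, 7.455 and 8.655 CPM with VEH (0.39 ± 0.12 SE, adjusted p = 0.0241). Both lost the call without VEH library 2 (adjusted p = 0.0615 for Pde2a and 0.0524 for Pde3b). Pde4c, the least abundant PDE4 gene here, rose by 0.60 ± 0.20 (adjusted p = 0.032) at 1.29 to 2.16 CPM with FLX, against 0.891 to 1.385 CPM with VEH, and lost the call without any 1 of VEH libraries 1, 5 and 6 or FLX libraries 1 and 5 (adjusted p = 0.0532 to 0.0641). The 15 Pde genes that did not pass include the abundant Pde4a (0.23 ± 0.11, adjusted p = 0.124), Pde4d (-0.125 ± 0.06, adjusted p = 0.129), Pde8b (-0.01 ± 0.05) and Pde10a (-0.05 ± 0.06). These 4 were chosen for their level after their values were seen, and Pde1a and Pde4c, past the 14 genes of smallest adjusted p, were also added then.

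Markers of other cells moved with the same groups. In FLX hippocampus, 7 of 8 microglia markers rose, with a summed level of 41.4 to 222 CPM, against 29.0 to 35.0 CPM with VEH, and 5 of 8 astrocyte markers rose (1870 to 5790 CPM with FLX, against 1460 to 1810 CPM with VEH). All 4 tested choroid plexus markers of 7 fell (21.9 to 111 CPM with FLX, against 23.3 to 5370 CPM with VEH), and of 9 tested granule-cell markers 2 rose and 4 fell (432 to 576 CPM with FLX, against 576 to 663 CPM with VEH). Without VEH libraries 1, 2 and 4, which leaves 3 VEH libraries, 4 cyclases rose (Adcy2, Adcy5, Adcy6 and Adcy9, median of the family 0.42) and no Pde gene passed. Adcy8 was then at 0.48 (adjusted p = 0.0608), Adcy1 at 0.22 (adjusted p = 0.113) and Pde1b at -0.24 (adjusted p = 0.0846). Without FLX libraries 2 and 4, 6 cyclases rose and 1 Pde gene, with 3 Pde genes lower. The part of the other markers in these results was not tested. With a correction for G+C content and length, 5 cyclases rose (median 0.33), 1 Pde gene rose and 6 fell, and Adcy1 (0.16, adjusted p = 0.125), Adcy7 (0.61, adjusted p = 0.0532), Pde2a (0.11, adjusted p = 0.185) and Pde4c (0.50, adjusted p = 0.0734) lost their calls, while the share of all called genes that rose was 36.1%, against 51.2% without it.

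In mossy cells, the same question gave fewer calls with the cyclases again on the upper side. All 8 cyclases tested had a positive log2 fold change (7 of 8 with a correction for G+C content and length), with a median of 0.40 against -0.00331 for all genes, and 3 passed: Adcy1, Adcy2 and Adcy9. No Pde gene rose and 2 of 21 fell, Pde1c and Pde7b. Among all 14229 genes, 8.05% rose and 1.26% fell, 9.31% in all. Adcy4, Adcy10, Pde6a, Pde6b, Pde6c, Pde6g and Pde6h were too low to test. The 3 cyclases are among the 7 called in hippocampus, which is 3 of 3 and 3 of 7. Of all genes that rose in mossy cells, 72.3% also rose in hippocampus, which is 34.3% of those that rose there. Mossy-cell and hippocampus libraries of the same number may not be independent, so the shared calls may not be either.

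Adcy1 had 215, 242 and 265 CPM in FLX mossy cells, against 160.4, 191 and 199 CPM in VEH mossy cells, and every FLX library lay above every VEH library (0.37 ± 0.08 SE, edgeR adjusted p = 0.00577), as did those of 2.45% of all genes. Adcy2 had 64.7, 80.3 and 110.3 CPM with FLX, against 51.3, 62.1 and 68.8 CPM with VEH (0.41 ± 0.12 SE, adjusted p = 0.0302). Adcy9 had 23.7, 33.8 and 51.1 CPM with FLX, against 22.4, 24.9 and 28.7 CPM with VEH (0.54 ± 0.15 SE, adjusted p = 0.0319). For Adcy2 and Adcy9, 5 of 7 FLX libraries lay above every VEH library. Adcy5 had 19.3, 38.0 and 51.4 CPM with FLX, against 21.9, 25.3 and 28.0 CPM with VEH (0.51 ± 0.16 SE), and missed the threshold at an adjusted p of 0.0578. FLX library 7 held the lowest FLX value of Adcy1, Adcy5, Adcy6, Adcy7 and Adcy9, and without it the adjusted p of Adcy5 was 0.00402.

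Pde1c, a PDE1 gene of low level, had 7.42, 8.42 and 12.2 CPM in FLX mossy cells, against 11.55, 13.45 and 15.1 CPM in VEH mossy cells (-0.60 ± 0.14 SE, edgeR adjusted p = 0.0103). All FLX libraries but library 1 lay below every VEH library. Pde7b had 5.77, 6.64 and 8.51 CPM with FLX, against 8.485, 11.0 and 12.45 CPM with VEH (-0.62 ± 0.15 SE, adjusted p = 0.0131), and 6 of 7 FLX libraries lay below every VEH library. No Pde gene had all FLX libraries below all VEH libraries here, as 0.717% of all genes did. Pde2a, which rose in hippocampus, stood at 0.27 ± 0.09 here (adjusted p = 0.0729), and Pde1b (-0.03 ± 0.11) and Pde4b (-0.03 ± 0.11), which fell there, did not pass. The edgeR test of the difference between the sources called 0 of the 34 genes tested, with 1 at an unadjusted p under 0.05 and 0 in DESeq2, and 7 of all 15922 genes (0.044%, with 0.00628% upward and 0.0377% downward). For Adcy1 the difference, mossy cells minus hippocampus, was 0.04 with a 95% interval of -0.18 to 0.26 from its SE.

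Single libraries mattered for the mossy-cell counts. Adcy9 lost its call without any 1 of VEH libraries 1, 2, 3, 4 and 6 or FLX libraries 3 and 4 (highest adjusted p = 0.0883), and Adcy2 without any 1 of VEH libraries 2, 4, 5 and 6 or FLX libraries 2, 4 and 5 (highest adjusted p = 0.0941). Only 1 gene rose without VEH library 2, 4 or 6 or FLX library 4, 6 rose without FLX library 1, and 5 without FLX library 7. Adcy1 kept its call in each of the 13 fits that left out 1 library. Markers of CA3 pyramidal cells summed to 296 to 679 CPM with FLX, against 245 to 304 CPM with VEH, and Nptx1 and Bok rose. Mossy-cell markers summed to 451 to 797 CPM, against 436 to 593 CPM, and Ephb6, Gal and Nmb rose. No other gene of these lists passed. Microglia markers summed to 3.98 to 79.0 CPM with FLX, against 2.93 to 6.47 CPM with VEH (3 of 7 tested rose), astrocyte markers to 426 to 1390 CPM, against 373 to 533 CPM (2 of 8 rose), interneuron markers to 3470 to 6370 CPM, against 3720 to 5090 CPM (2 of 10 rose, 1 fell), and choroid plexus markers to 3.56 to 12.5 CPM, against 4.25 to 283 CPM (1 of 2 tested fell). Without VEH libraries 1, 2 and 4, Adcy1 was at 0.31 (adjusted p = 0.16), Adcy2 at 0.32 (adjusted p = 0.344), Adcy9 at 0.48 (adjusted p = 0.316), Pde1c at -0.62 (adjusted p = 0.142) and Pde7b at -0.61 (adjusted p = 0.164), so no gene passed. Without FLX libraries 4 and 7, 4 cyclases rose and Pde1c and Pde7b fell. With a correction for G+C content and length, Adcy1 was at 0.23 (adjusted p = 0.103) and Adcy9 at 0.33 (adjusted p = 0.141). The part of the other markers in these results was not tested.

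**Figure D4:**
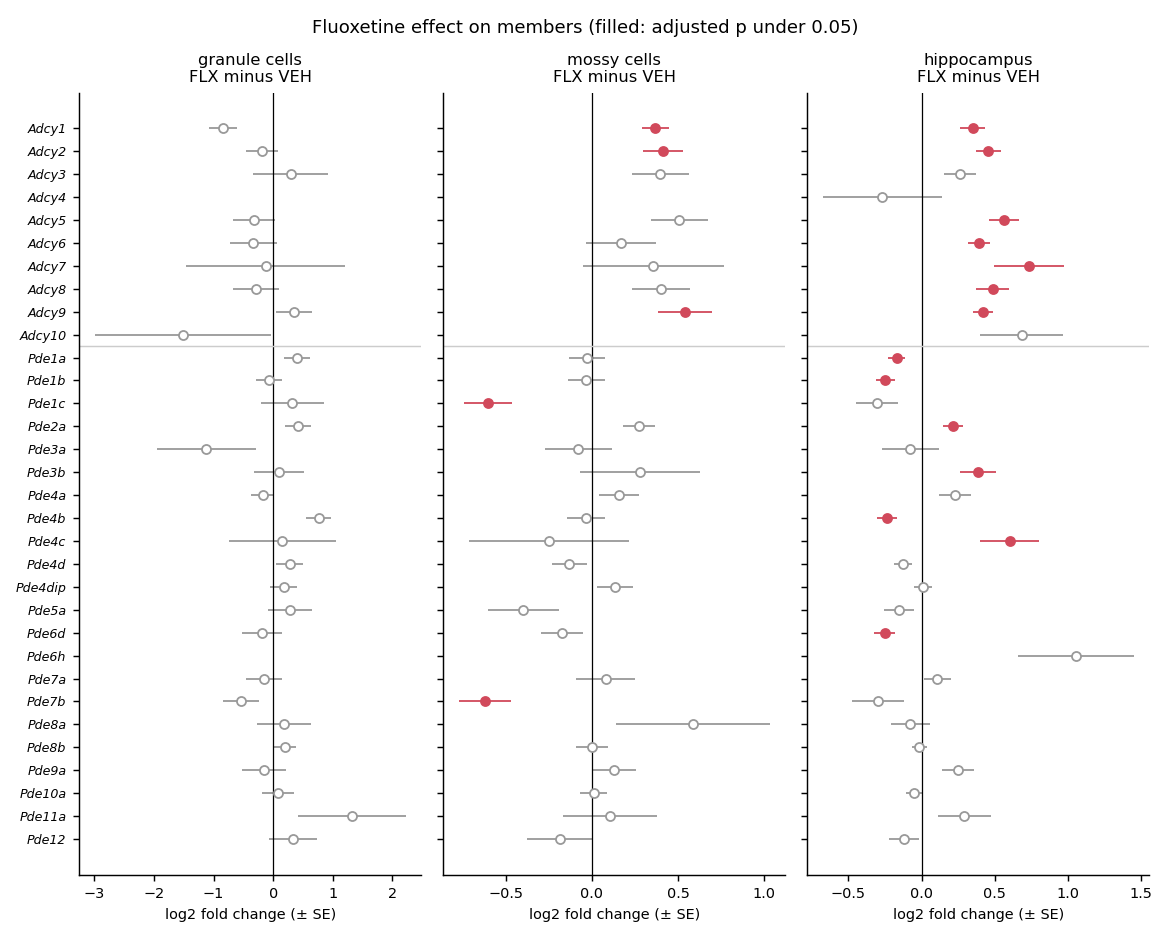
Log2 fold change ± SE, FLX minus VEH, of each tested gene in granule cells, mossy cells and hippocampus, with filled points at an adjusted p under 0.05 and cyclases above the grey line. Filled cyclases lie right of 0 in mossy cells (3) and hippocampus (7), and no point is filled in granule cells.

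In granule cells, no cyclase or Pde gene passed, and neither did any other of the 14236 genes (0.0%) in edgeR. At an unadjusted p under 0.05 there were 1056 genes (7.42%), among them 2 of the 30 genes tested here, Adcy1 and Pde4b. DESeq2 called 77 genes (0.541%), none of them a cyclase or Pde gene, with Adcy1 at an adjusted p of 0.0566. The median log2 fold change was -0.28 for 9 cyclases, of which 7 were negative, and 0.17 for 21 Pde genes, against 0.00948 for all genes. In the 8 fits that left out 1 library, the cyclase median ran from -0.417 to -0.109 and the Pde median from 0.0255 to 0.27. VEH libraries 1 and 4 were the highest in CA1 and CA2 markers. Without both, the cyclase median was -0.01, with 5 of 10 positive, and the Pde median 0.00901. That fit has fewer VEH libraries and tested 10 cyclases in place of 9.

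Adcy1 had 317, 545.7, 338 and 264.5 CPM in the granule-cell FLX libraries, against 619.5, 809.7, 593 and 603 CPM in the VEH libraries. Every FLX library lay below every VEH library, as in 1.97% of all genes (-0.85 ± 0.23 SE, unadjusted p = 0.00256, edgeR adjusted p = 0.407). Adcy1 was 50.0% ± 2.91 of all Adcy TPM with FLX and 63.1% ± 4.52 with VEH (SD, n = 4 each). Pde4b had 169, 151, 219 and 249 CPM with FLX, against 129, 97.4, 125 and 108.5 CPM with VEH, every FLX library above every VEH library, as in 2.46% of all genes (0.76 ± 0.21 SE, edgeR adjusted p = 0.407). Pde11a, named after its values were seen, was the other gene with all FLX libraries above, at 2.32 to 5.56 CPM with FLX, against 0 to 2.315 CPM with VEH (1.31 ± 0.91 SE). Granule-cell markers summed to 1050 to 1230 CPM with FLX, against 1400 to 1490 CPM with VEH, astrocyte markers to 1340 to 1770 CPM, against 1000 to 1170 CPM, microglia markers to 45.7 to 50.0 CPM, against 21.9 to 40.3 CPM, oligodendrocyte markers to 727 to 940.0 CPM, against 574 to 691 CPM, interneuron markers to 624 to 1120 CPM, against 612 to 839 CPM, and markers of CA1 and CA2 pyramidal cells to 404 to 686 CPM, against 559 to 1580 CPM, with 0 genes of these lists called. Choroid plexus markers summed to 43.5 to 1240 CPM with FLX, against 42.2 to 621 CPM with VEH. They were highest in library 2 of each group, which also held the highest Adcy1 value of its group. The part of all these markers was not tested, and without VEH libraries 1 and 4 Adcy1 was at -0.92 and Pde4b at 0.83.

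The difference between sources in the fluoxetine effect was tested as an interaction. Adcy1 differed between granule cells and mossy cells (-1.21 ± 0.21 SE, edgeR adjusted p = 0.0301) and between granule cells and hippocampus (-1.19 ± 0.22 SE, adjusted p = 0.0119). It was the only one of the 34 genes to pass in the first test, where 0.181% of 15444 genes did (0.0518% upward, 0.13% downward), and 1 of 2 of 33 genes in the second, where 1.98% of 16124 did (1.12% upward, 0.868% downward). Pde4b was the other, with 1.01 ± 0.17 between granule cells and hippocampus (adjusted p = 0.00947), and with 0.81 ± 0.21 between granule and mossy cells it did not pass (adjusted p = 0.0954). Both tests use the same granule-cell libraries. All 10 cyclases had a negative difference against mossy cells (median -0.63) and 9 of 10 against hippocampus (median -0.73), against -0.021 and 0.00506 for all genes. Without granule-cell VEH libraries 1 and 4 these medians were -0.43 and -0.43, with 2 of 10 and 0 of 10 positive. The Adcy1 call against mossy cells was lost without granule-cell VEH libraries 1 and 4 (-1.30, adjusted p = 0.0674), and without any 1 of granule-cell FLX libraries 1 and 3, mossy-cell VEH libraries 2, 3, 5 and 6 or mossy-cell FLX libraries 5 and 6 (highest adjusted p = 0.0675), while it passed in each of the 21 such fits against hippocampus, as did Pde4b. With the replicate number as a block, Adcy1 and Pde4b did not pass against hippocampus (edgeR adjusted p = 0.551 for each), nor Adcy1 against mossy cells (0.556). The replicate numbers were not taken as pairing. Without granule-cell FLX library 2, 2 cyclases passed against mossy cells and 3 against hippocampus.

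**Figure D5:**
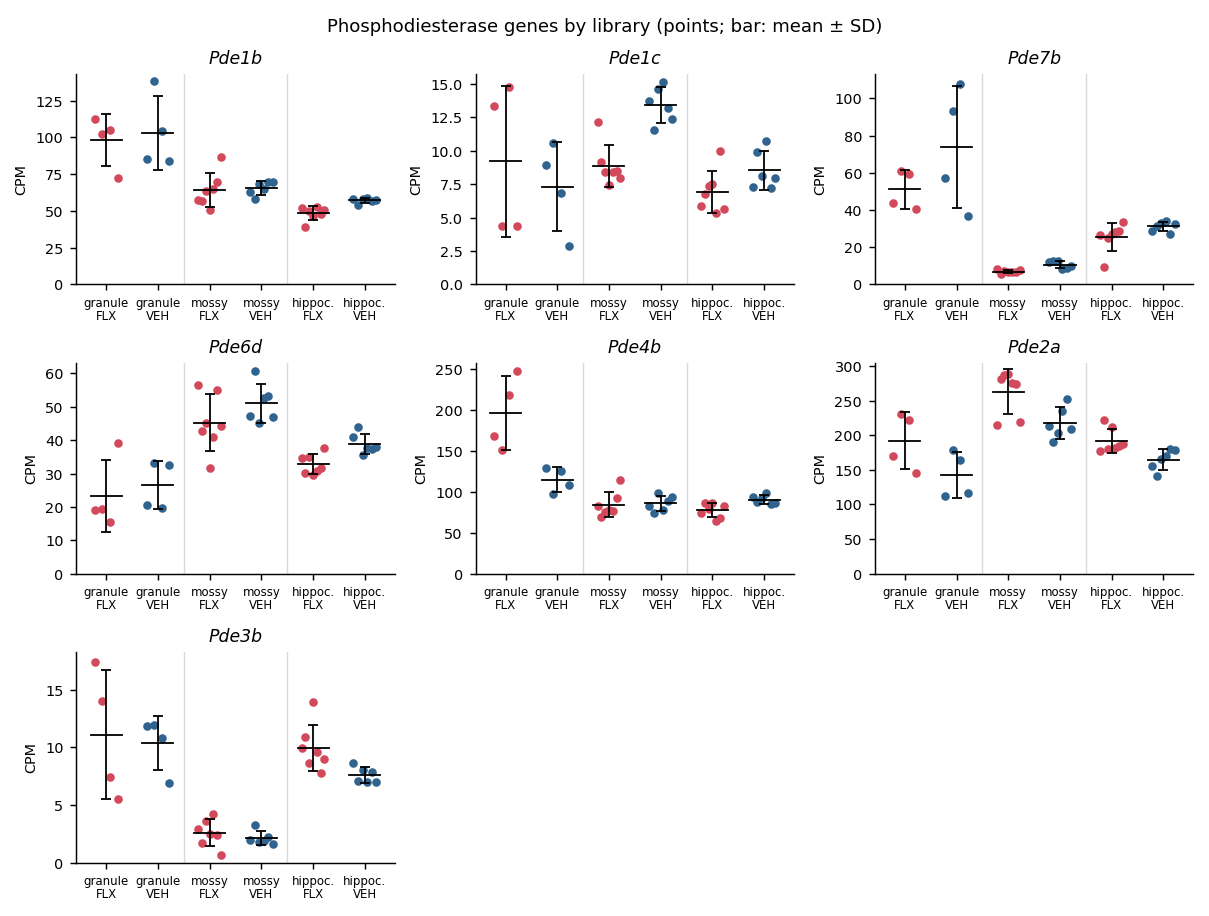
CPM of 7 Pde genes in every library, with FLX (red) left of VEH (blue) in each source; horizontal bars are means and error bars SD. In hippocampus all FLX points of Pde1b (38.9 to 52.55 CPM) lie below the VEH points (54.3 to 58.9 CPM), and in granule cells all FLX points of Pde4b (151 to 249 CPM) lie above the VEH points (97.4 to 129 CPM).

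Shown here are the promoters of Adcy1, Adcy2, Adcy5 and Adcy9, the cyclases with a single window that rose in hippocampus. Of these, Adcy1, Adcy2 and Adcy9 also rose in mossy cells. They were chosen for their shared rise in hippocampus, which did not extend to granule cells, where no cyclase passed. The promoter of Pde7b, which fell in mossy cells, is shown beside them. Adcy6 and Adcy8 have no window, and Adcy7 has 3. The sequences are the 250 bases before the transcription start in RefSeq (GRCm38.p6), printed 5′ to 3′ on the gene's strand, with GC boxes in capitals (the letters GGGCGG, which read on the other strand of the same DNA are CCGCCC), the sequence that Sp1-type factors bind.
Adcy1 (chr11:7063183-7063432, + strand): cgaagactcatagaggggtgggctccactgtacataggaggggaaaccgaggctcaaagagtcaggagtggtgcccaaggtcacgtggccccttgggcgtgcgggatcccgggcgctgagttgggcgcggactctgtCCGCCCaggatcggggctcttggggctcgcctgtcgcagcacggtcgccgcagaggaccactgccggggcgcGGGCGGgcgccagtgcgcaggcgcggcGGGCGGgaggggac
Adcy2 (chr13:68999542-68999791, - strand): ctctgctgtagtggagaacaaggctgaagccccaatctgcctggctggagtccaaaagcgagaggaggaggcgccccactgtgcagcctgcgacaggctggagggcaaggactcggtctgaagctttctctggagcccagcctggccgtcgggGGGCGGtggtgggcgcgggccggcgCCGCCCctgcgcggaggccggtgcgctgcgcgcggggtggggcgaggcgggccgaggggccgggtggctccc
Adcy5 (chr16:35154614-35154863, + strand): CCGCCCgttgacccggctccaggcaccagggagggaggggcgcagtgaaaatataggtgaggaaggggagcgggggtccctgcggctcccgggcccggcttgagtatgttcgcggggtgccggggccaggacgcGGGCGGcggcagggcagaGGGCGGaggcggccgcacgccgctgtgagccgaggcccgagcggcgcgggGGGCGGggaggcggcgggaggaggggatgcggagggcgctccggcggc
Adcy9 (chr16:4420499-4420748, - strand): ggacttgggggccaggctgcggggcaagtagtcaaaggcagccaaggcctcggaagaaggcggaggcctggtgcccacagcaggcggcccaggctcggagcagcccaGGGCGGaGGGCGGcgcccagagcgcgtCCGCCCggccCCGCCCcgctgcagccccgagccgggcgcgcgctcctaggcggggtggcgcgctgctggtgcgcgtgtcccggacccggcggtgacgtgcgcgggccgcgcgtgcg
Pde7b (chr10:20548329-20548578, - strand): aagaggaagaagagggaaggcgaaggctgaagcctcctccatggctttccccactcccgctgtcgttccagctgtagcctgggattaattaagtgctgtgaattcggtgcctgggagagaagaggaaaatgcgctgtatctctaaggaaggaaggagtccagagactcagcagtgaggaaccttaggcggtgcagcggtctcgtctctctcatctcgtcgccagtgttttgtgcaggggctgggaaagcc
Adcy1 holds 3 GC boxes, Adcy2 2, Adcy5 4 and Adcy9 4, while Pde7b holds 0, and their G+C content is 71.2%, 73.2%, 78.0%, 78.8% and 55.2%. Over all 32851 windows of that length the median G+C content is 52.4%, 32.7% hold a GC box and 8.47% hold 3 or more. Of the 3 windows of Adcy7, which also rose, 1 holds a single GC box, and their G+C content runs from 54.0% to 56.4%. Among the other Pde genes that fell with FLX, the windows of Pde1a, Pde1c, Pde4b and Pde6d hold 0, and 1 of 3 windows of Pde1b holds 2. Of the Pde genes that rose, Pde4c holds 0 and Pde2a has 3 in 1 of 5 windows. Genes that did not pass with FLX in any source hold as many as the cyclases shown: Pde8b has 4 in 2 of 5 windows, Pde4a up to 4 and Pde11a 3. Of 52 windows of the 27 genes that have one here, 34.6% hold a GC box, close to the share of all windows. The cAMP response element, TGACGTCA on either strand, is in 0 of the 52 windows and in 1.55% of all windows, and its core TGACG, searched on both strands and overlapping the full element, is in 13.5% and 17.8%. A match is a string of letters and does not show that a factor binds there.

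The rest of the cAMP and cGMP pathway was read from 7 lists. In hippocampus, the list of protein kinase A, the main target of cAMP, and its inhibitors had 5 of 9 genes lower with FLX and 0 higher (median -0.20). It was led by the catalytic subunit Prkacb (-0.23 ± 0.06 SE, edgeR adjusted p = 0.00774) and the regulatory subunits Prkar1a (-0.20 ± 0.06) and Prkar2b (-0.27 ± 0.08). The rest of the 5, named after their values were seen, encode inhibitors of the kinase, Pkia (-0.17 ± 0.06) and Pkig (-0.20 ± 0.07). The count thus mixes the kinase with its inhibitors. The same direction held in the list of calmodulin and its targets, with 5 of 9 lower and 0 higher (median -0.15), including the calcineurin subunit Ppp3ca (-0.33 ± 0.06), Calm2 (-0.30 ± 0.08) and the kinase Camk4 (-0.29 ± 0.08). Of 7 G protein alpha subunits coupled to cyclase, the inhibitory Gnai1 (-0.33 ± 0.06) and Gnai3 (-0.24 ± 0.08) fell and 0 rose. Among cyclic nucleotide-gated channels, HCN channels and EPAC exchange factors, 3 of 11 rose and 0 fell (median 0.30): the pacemaker channels Hcn2 (0.48 ± 0.11) and Hcn3 (0.47 ± 0.15) and the EPAC gene Rapgef4 (0.34 ± 0.12). A-kinase anchoring proteins split, with 5 of 13 higher, led by Akap1 (0.56 ± 0.10), Akap13 (0.63 ± 0.12) and Akap8 (0.40 ± 0.08), and 3 lower, Akap5 (-0.21 ± 0.06), Akap2 (-0.18 ± 0.05) and Akap9 (-0.20 ± 0.07). On the cGMP side, the natriuretic peptide receptor Npr2, itself a guanylyl cyclase, rose (0.74 ± 0.13), while the soluble guanylyl cyclase subunits Gucy1b3 (-0.26 ± 0.06), Gucy1a2 (-0.28 ± 0.07) and Gucy1a3 (-0.32 ± 0.10) fell, out of 13 tested. Of 8 cAMP-responsive transcription factors and coactivators, Creb1 fell (-0.25 ± 0.06) and 0 rose. The background is that of all genes in hippocampus, 15.5% up and 14.7% down. Values of the 7 lists, here and in the other sources, come from all libraries and carry no G+C correction. How far they rest on the libraries that stood apart is not given.

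In mossy cells, these lists gave fewer calls, against a background of 8.05% up and 1.26% down. Hcn2 rose (0.74 ± 0.15 SE, edgeR adjusted p = 0.00447), as did Crtc1, a CREB coactivator (0.46 ± 0.10), Akap11 (0.43 ± 0.12), Npr2 (0.56 ± 0.17) and Camk2a, the alpha subunit of the calcium- and calmodulin-dependent kinase of synapses (0.46 ± 0.13). Akap2 (-0.31 ± 0.09) and Gucy1a2 (-0.45 ± 0.12) fell. No gene of the protein kinase A or G protein lists passed there (0 of 9 and 0 of 7 in edgeR, with 1 gene of each at an unadjusted p under 0.05, medians -0.11 and 0.05). In granule cells edgeR called 0 of 65 tested genes of the 7 lists, with 4 at an unadjusted p under 0.05.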

How the data were processed

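The authors deposited raw read counts per gene symbol, in 1 table for each source with 24485 symbols, and these counts were used as deposited. Per the submitters' processing notes, the tools were STAR 2.5.2b, HTSeq 0.7.2 and edgeR with GRCm38; annotation, strand setting and treatment of multimapping reads are not given in the sources used here. Per the labels' protocols, RNA was amplified from a single primer and sequenced as paired ends. Groups and replicate numbers came from the labels. CPM used TMM factors over 34 libraries, and TPM the union of exons in GENCODE M21, to which 22761 symbols matched directly, 930 by a RefSeq synonym and 794 not at all. Tests used edgeR 4.0.16 (TMM, filterByExpr with a minimum count of 10, glmQLFit and glmQLFTest) in R 4.3.3, with Benjamini-Hochberg adjustment over all genes and a threshold of 0.05. Fluoxetine effects were fitted within each source, and vehicle contrasts and interactions in joint fits of 4 groups. SE is the log2 fold change divided by the square root of F. The alternatives were DESeq2 1.42.0, its size factors, other filters on low counts, removal of Rn45s and Lars2, a loess correction for G+C content and length, a replicate block and leaving out libraries. The fits were also run on simulated counts, with each library drawn independently around a common mean per gene. That run does not cover libraries that stand apart or share an origin, and its outcome is not reported here. Members and lists were chosen with earlier results of these data known. Genes named with values are the members called with fluoxetine in any source (at most 14), the 3 cyclases and 3 Pde genes of highest level per source, up to 6 called members per direction and vehicle contrast by fold change, called interactions, and up to 3 called genes per direction and pathway list by p. Replicate libraries of a group differed by more than sampling noise (chi-square per degree of freedom 6.74 to 391).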

Additional observations from a re-analysis of the deposited data

Results flagged for a closer look

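Values that stood apart from the rest of their group were looked for in 84 groups of libraries and 6 were found, where chance gives about 1 in 20. Adcy8 was highest in granule-cell VEH library 1 at 20.2 CPM. Adcy1 was highest in granule-cell VEH library 2 at 809.7 CPM. In hippocampus FLX library 2, Pde1b (38.9 CPM) and Pde7b (9.45 CPM) were the lowest. Pde1c was highest in mossy-cell FLX library 1 at 12.2 CPM, and Pde6d was highest in granule-cell FLX library 4 at 39.2 CPM.

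The fluoxetine effect differed between sources by an interaction test for 2 genes. For Adcy1 the difference was -1.21 (log2, granule cells minus mossy cells) and -1.19 (granule cells minus hippocampus), and for Pde4b it was 1.01 (granule cells minus hippocampus). The comparisons share the granule-cell libraries.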

How the results depend on the processing

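No called difference of a named gene changed sign under any alternative run. The uncalled fluoxetine effect of Adcy6 in mossy cells was -0.02 with the G+C content and length correction, against 0.17 without it. With DESeq2's Wald test, 5 genes rose in mossy cells, 1 passed upward in the interaction of granule with mossy cells and 2 downward in that with hippocampus. With the G+C content and length correction, 1 rose in mossy cells, 6 rose in hippocampus and 2 passed downward in the interaction of granule cells with hippocampus. Using the longest transcript as gene length, Pde1a was 21.5%, 25.7% and 32.6% of Pde TPM in granule cells, mossy cells and hippocampus. DESeq2's size factors, the filters on low counts and removal of Rn45s and Lars2 kept every count within 1.5 times.

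Some alternatives were added after seeing the data. Without granule-cell VEH libraries 1 and 4, 5 genes were lower in granule than in mossy cells and 1 than in hippocampus, and 0 passed in the interaction with mossy cells. Without VEH libraries 1, 2 and 4, 4 genes rose and 0 fell in hippocampus, and 0 rose and 0 fell in mossy cells; these fits have fewer samples.

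Leaving out 1 library at a time gave 1 to 6 genes higher with FLX in mossy cells. It gave 6 to 11 lower in granule than in mossy cells and 1 to 5 lower than in hippocampus. For the interactions it gave 0 to 1 upward and 0 to 2 downward with mossy cells, and 1 to 2 upward and 1 to 3 downward with hippocampus.

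In no comparison did every same-numbered pair of libraries correlate above 0.1, so the numbers were not taken as pairing. For mossy cells and hippocampus 3 of 7 FLX and 4 of 6 VEH pairs did, and 6 of 7 and 5 of 6 correlated best with their own number. Their correlations were all positive (0.0611 to 0.306 with FLX and 0.0525 to 0.184 with VEH). Same-numbered libraries of these sources may thus not be independent, which bears on their contrast, interaction and shared calls. With the replicate block, 6 genes were lower in granule than in mossy cells, 3 higher and 0 lower than in hippocampus, and the interactions of granule cells gave 0 downward with mossy cells and 0 upward and 0 downward with hippocampus. In those block fits Adcy1 stood at -1.29 (edgeR adjusted p = 0.556) with mossy cells and -1.24 (0.551) with hippocampus, and Pde4b at 0.96 (0.551) with hippocampus. The cause of these shifts was not tested. Depth limits the genes near or under 1 TPM, among them Adcy4, Adcy10 and the photoreceptor Pde6 genes.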
